A study of Mus musculus with 16 samples.

Results

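The 41 genes described here are genes with a known place in the cell cycle, chosen for that role, and all 41 had a row among the 24496 gene symbols of the deposited tables. Of these, 17 act in S phase, when DNA is copied, and 22 act in G2 and mitosis, when the copies are checked and pulled apart (G2/M). The remaining 2, Stmn1 and Hmgb2, accompany division but are also used outside it, so they were kept out of the summed lists. Each gene was followed through 16 libraries, across tissue, sort, genotype, treatment and cell type.

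Entry into S phase is driven largely by E2F factors, which switch on the genes that load and run the replication helicase and those that make nucleotides. Genes for the spindle, the centromere and the mitotic kinases are held silent in resting cells and switched on later, through a MuvB-based complex that works with B-Myb and FoxM1. Naive lymphocytes of the spleen seldom divide, whereas T cells that have met antigen, germinal centre B cells and some tissue macrophages do.

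Single-cell RNA was measured at day 19 after implantation of MC38, a mouse colon adenocarcinoma line, under the skin of C57BL/6 mice that were either wild type (*Aire*+/+) or lacked *Aire* (*Aire*-/-), the gene that lets the thymus display tissue antigens to developing T cells. The mice, young adult females, received an antibody that blocks PD1, an inhibitory receptor of T cells, or an isotype control antibody. Cells sorted as CD45+ (all leukocytes) or CD8+ were taken from tumors and from spleens, which gave 1 library for each of the 4 conditions in each of the 2 tissues and 2 sorts. The tumors of several mice were pooled into each tumor library, and spleens were pooled as well, so animals cannot be told apart. With 1 library per group, no test between conditions was made.

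A UMI (unique molecular identifier) counts each captured RNA molecule once. Values of the 4 conditions are given below with *Aire*+/+ before *Aire*-/- and, within a genotype, the isotype control before anti-PD1. After removal of 156 of 37609 barcodes, 37453 cells remained. The tumor CD8+ libraries held 35163283, 27052446, 22414026 and 23271163 UMIs and the splenic CD8+ libraries 20126142, 19167791, 15590033 and 16279428. For the CD45+ sort the totals were 38930018, 28760725, 24639380 and 23282801 in tumor and 12131829, 10927395, 11179230 and 12618100 in spleen. Tumor cells were the deeper ones, with median UMIs per cell of 11164, 10349, 10199 and 8883 in the CD8+ sort against 6405, 6304, 6282 and 5801 in spleen. In the CD45+ sort these medians were 11892, 11858, 12252 and 9889 against 4549, 4414, 4733 and 4502. Gene levels are therefore given as UMIs per 1000000 UMIs of the library (CPM), and every interval is a 95% interval that covers counting error only.

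The labels were checked where the data allowed it. Aire itself was hardly captured, with 24 UMIs in all and 0 to 6 per library, which is too few to check the genotype labels. A tag at one end of the transcript also need not fall in the deleted part. Cd8a was found in 97.4 to 98.3% of the cells of the tumor CD8+ libraries and in 90.3 to 93.5% of those from spleen. All 120 pairs of libraries shared cell barcodes, 2 to 18 per pair with a median of 7, and at most 0.840% of the smaller library. Libraries of 2 conditions stood apart by markers of other cells. The splenic CD8+ library of *Aire*+/+ isotype mice held 3050 UMIs of the globin gene Hbb-bs, a marker of erythroid cells, against 247 in the splenic CD8+ library of *Aire*-/- mice under anti-PD1. The tumor CD8+ library of *Aire*-/- isotype mice held 5 of 5 stromal markers at 203 CPM, led by Col1a1 with 1524 UMIs, against 18.2, 0.518 and 0.516 CPM in the other 3. Ratios of the summed lists that rest on either library are given below for gated CD8+ T cells as well, whereas counts of genes and values of single genes are for all cells.

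Among the 16 libraries, cell cycle genes were most abundant in the CD8+ libraries of the tumor. The CD45+ libraries mix cell types, whose levels are given with the gates below. The 17 S-phase genes together reached 1394, 1352, 1352 and 1332 CPM there, against 376, 343, 489 and 493 CPM in splenic CD8+ cells. The 22 G2/M genes reached 1152, 1113, 1139 and 935 CPM in tumor and 82.9, 67.7, 253 and 133 CPM in spleen. Every tumor CD8+ library thus lay above every splenic one for both lists, and the splenic libraries of *Aire*-/- mice lay above those of *Aire*+/+ mice. In the CD45+ sort the S-phase genes stood at 398, 457, 453 and 793 CPM in tumor and 440.4, 366, 373 and 396 CPM in spleen. The G2/M genes stood at 288, 337, 323 and 446 and 181, 134, 105 and 150.0 CPM. Among these 8 libraries the tumor of *Aire*-/- mice under anti-PD1 was highest for both lists, and the tissues overlapped for the S-phase genes but not for the G2/M genes.

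**Figure D1:**
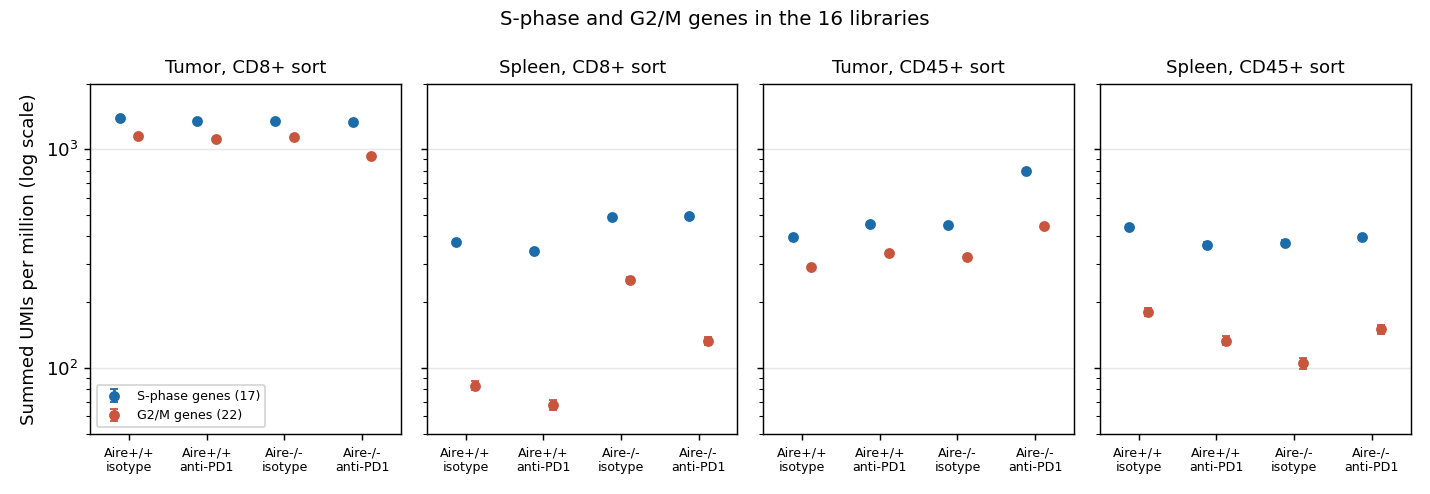
Summed CPM (log scale) of the 17 S-phase genes (blue) and the 22 G2/M genes (red) in each of the 16 libraries, with exact Poisson 95% intervals that are mostly smaller than the points. The 4 tumor CD8+ libraries sit highest for both lists, and the G2/M genes of splenic CD8+ cells sit lowest in the 2 libraries of wild-type mice.

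Helicase loading precedes S phase, which opens when the loaded helicase is activated. Mcm2 to Mcm7 encode the ring that unwinds DNA, Cdc6 helps load it, Gins2 is part of the complex that activates it, and Ccne2 encodes a cyclin E that drives the step with its kinase. These 9 genes together stood at 591, 557, 599.9 and 590.2 CPM in tumor and 232, 208, 258 and 289 CPM in spleen in the CD8+ sort. They stood at 195, 209.6, 209 and 356 CPM in tumor and 225, 202, 218 and 218 CPM in spleen in the CD45+ sort. The resting background of this group was high, since splenic CD8+ libraries kept at least 208 CPM. Mcm5 was at 71.01, 63.8, 69.2 and 70.9 CPM in tumor and 20.4, 17.7, 26.2 and 27.9 CPM in spleen in the CD8+ sort, and 21.9, 24.4, 23.9 and 40.5 CPM in tumor and 26.05, 19.9, 23.3 and 24.6 CPM in spleen in the CD45+ sort. The tumor CD8+ libraries were alike for Mcm5 and above all others, the tumor CD45+ library of *Aire*-/- mice under anti-PD1 came next, and the remaining 11 overlapped. By the median over the 4 conditions, the log2 ratio of tumor over spleen in CD8+ cells was Mcm2 1.35, Mcm3 1.42, Mcm4 0.99, Mcm5 1.60, Mcm6 1.16 and Mcm7 1.01. For Cdc6, Gins2 and Ccne2 it was 2.48, 2.73 and 2.95, larger than for any Mcm gene.

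At the fork, Pcna encodes the sliding clamp that holds the polymerases on DNA, 2810417H13Rik (now called Pclaf) a protein that binds the clamp, and Uhrf1 a factor that carries DNA methylation over to the new strand. The 3 genes stood at 319, 315, 306 and 306 CPM in tumor and 59.9, 61.2, 104 and 86.9 CPM in spleen in the CD8+ sort. Pcna was at 116, 117, 115 and 120.3 CPM in tumor and 46.6, 50.4, 61.00 and 57.5 CPM in spleen in the CD8+ sort, and 64.8, 72.2, 73.7 and 95.1 CPM in tumor and 56.8, 50.7, 49.3 and 46.7 CPM in spleen in the CD45+ sort. Tumor CD8+ cells were again highest for Pcna, but by a small margin, and splenic cells of both sorts kept a steady level. Median log2 ratios of tumor over spleen in the CD8+ sort were Pcna 1.14, 2810417H13Rik 3.51 and Uhrf1 2.56, so the clamp and its partner, which meet on the same DNA, differed widely in how far the tissues were apart.

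Nucleotide supply is the work of Rrm1 and Rrm2, the subunits of ribonucleotide reductase, Tyms, which makes thymidylate, Tk1, which salvages thymidine, and Dut, which clears dUTP. Summed, these 5 genes stood at 483, 480.1, 447 and 436 CPM in tumor and 83.6, 73.6, 128 and 118 CPM in spleen in the CD8+ sort. Rrm2, the regulated subunit, was at 91.8, 96.9, 96.3 and 87.3 CPM in tumor and 5.61, 3.91, 24.4 and 17.1 CPM in spleen in the CD8+ sort, and 14.1, 20.03, 18.4 and 45.7 CPM in tumor and 16.2, 8.14, 7.16 and 11.1 CPM in spleen in the CD45+ sort. Rrm2 was lowest in the splenic CD8+ libraries of wild-type mice, several times higher in those of *Aire*-/- mice, and highest in the tumor. The median tissue ratio in CD8+ cells was 3.19 for Rrm2 and 1.71 for Rrm1, its constant partner. For Tyms, Tk1 and Dut it was 2.82, 3.54 and 1.82.

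Among G2/M genes, Ccna2, Ccnb1 and Ccnb2 encode the cyclins of late S phase and mitosis and Cdk1 their kinase. The 4 genes stood at 193, 194, 184 and 157 CPM in tumor and 14.01, 10.8, 42.98 and 22.2 CPM in spleen in the CD8+ sort. Cdk1 was at 52.3, 48.1, 50.6 and 38.2 CPM in tumor and 1.99, 2.14, 8.27 and 4.73 CPM in spleen in the CD8+ sort, and 10.8, 13.6, 12.9 and 18.4 CPM in tumor and 5.61, 4.67, 2.95 and 3.96 CPM in spleen in the CD45+ sort. Ccnb1 was at 20.5, 18.1, 23.5 and 17.2 CPM in tumor and 2.24, 0.887, 5.13 and 2.33 CPM in spleen in the CD8+ sort, and 6.40, 6.22, 6.33 and 6.87 CPM in tumor and 2.72, 2.01, 1.07 and 2.77 CPM in spleen in the CD45+ sort. Both genes were sparse (Ccnb1 had 45 and 17 UMIs) in splenic CD8+ cells of wild-type mice and were higher in the splenic library of *Aire*-/- isotype mice than in the other 3. Median tissue ratios in CD8+ cells were Ccna2 3.44, Ccnb1 3.04, Ccnb2 2.89 and Cdk1 3.75 on the log2 scale.

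Exit from mitosis depends on the anaphase-promoting complex, which Cdc20 activates and Ube2c supplies with ubiquitin, and on Bub1 and Bub1b, the checkpoint kinases that hold it back. These genes stood at 167, 153, 170.0 and 129 CPM in tumor and 13.1, 10.2, 33.5 and 17.4 CPM in spleen in the CD8+ sort. The mitotic kinases Aurka (centrosome and spindle poles), Aurkb (chromosomes and midzone) and Plk1, together with Birc5, the survivin that anchors Aurkb, stood at 136, 131, 133 and 113 CPM in tumor and 9.64, 8.92, 37.8 and 19.96 CPM in spleen in the CD8+ sort. Both groups were several times higher in tumor than in any splenic CD8+ library. Birc5 was at 80.5, 81.8, 74.7 and 67.2 CPM in tumor and 5.91, 4.59, 22.3 and 11.7 CPM in spleen in the CD8+ sort, and 25.7, 28.5, 23.5 and 32.99 CPM in tumor and 11.1, 7.41, 4.74 and 9.67 CPM in spleen in the CD45+ sort. Among splenic CD8+ libraries Birc5 was lowest in wild-type mice, and in the CD45+ sort each tumor library lay above all 4 spleens. Median log2 tissue ratios in CD8+ cells were Cdc20 1.65, Ube2c 4.02, Bub1 3.73 and Bub1b 2.81 for the anaphase group and Aurka 2.49, Aurkb 3.41, Plk1 2.80 and Birc5 3.15 for the kinase group, so Cdc20 and Aurka had the smallest ratio of each.

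Of the centromere genes, Cenpa encodes the histone variant that marks the centromere, Cenpe a motor that carries chromosomes along microtubules and Cenpf a protein of the outer kinetochore. They stood at 193, 201, 196 and 164 CPM in tumor and 25.2, 21.2, 41.6 and 27.2 CPM in spleen in the CD8+ sort. The 5 spindle genes were Tpx2, which activates Aurora A, the motors Kif11 and Kif20a, and the microtubule binders Nusap1 and Prc1. Their sum was 163, 159, 165 and 139 CPM in tumor and 8.30, 6.57, 36.8 and 17.7 CPM in spleen in the CD8+ sort. Splenic levels of the spindle group were low in wild-type mice, while the centromere group, in which Cenpa alone gave 21.9, 18.7, 29.2 and 23.6 CPM in splenic CD8+ cells, stayed higher. Median log2 tissue ratios in CD8+ cells were Cenpa 2.35, Cenpe 3.87 and Cenpf 4.39 at the centromere and Tpx2 3.17, Kif11 3.57, Kif20a 2.34, Nusap1 4.31 and Prc1 3.93 at the spindle.

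Top2a, the topoisomerase that untangles sister chromatids, and Mki67, which coats mitotic chromosomes and is the usual marker of dividing cells, describe chromosome structure. Top2a was at 225, 207, 220.3 and 179 CPM in tumor and 8.94, 7.04, 39.6 and 20.5 CPM in spleen in the CD8+ sort, and 34.5, 47.98, 48.7 and 85.6 CPM in tumor and 27.5, 14.4, 13.1 and 23.2 CPM in spleen in the CD45+ sort. Mki67 was at 74.99, 67.9, 71.4 and 55.1 CPM in tumor and 3.78, 2.92, 20.3 and 7.92 CPM in spleen in the CD8+ sort, and 18.6, 21.1, 23.5 and 35.6 CPM in tumor and 17.6, 10.6, 5.46 and 13.3 CPM in spleen in the CD45+ sort. The order of the libraries was the same for both genes in splenic CD8+ cells, with *Aire*-/- isotype highest and *Aire*+/+ anti-PD1 lowest, and the tumor CD8+ libraries were all far above them. Median tissue ratios in CD8+ cells were 3.89 for Top2a and 3.55 for Mki67.

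Stmn1, which destabilises microtubules, and Hmgb2, a DNA-bending chromatin protein, have uses outside the cell cycle. Stmn1 was at 279, 288, 257 and 271 CPM in tumor and 31.5, 26.9, 91.4 and 64.8 CPM in spleen in the CD8+ sort, and 64.3, 80.7, 70.98 and 135 CPM in tumor and 55.6, 52.6, 44.1 and 49.8 CPM in spleen in the CD45+ sort. Hmgb2 was at 557, 627, 579 and 606 CPM in tumor and 184, 165, 295 and 234 CPM in spleen in the CD8+ sort, and 271, 323, 319 and 412 CPM in tumor and 267, 216, 200.5 and 210.0 CPM in spleen in the CD45+ sort. Both were highest in the tumor CD8+ libraries, with median tissue ratios of 2.61 and 1.48 in CD8+ cells. In the other myeloid cells of the tumor CD45+ libraries (Lyz2 cells, defined below), where S-phase and G2/M genes were near their lowest, Hmgb2 was at 202 CPM but Stmn1 at only 6.27 CPM. High-list cells (defined below) held 86.2% of the Stmn1 UMIs and 50.95% of the Hmgb2 UMIs of tumor CD8+ cells.

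The balance of G2/M over S-phase UMIs was compared between libraries only, since the lists differ in the number of their genes. It was 0.826, 0.823, 0.842 and 0.702 in tumor CD8+ cells and 0.221, 0.197, 0.516 and 0.269 in splenic CD8+ cells. In the CD45+ sort it was 0.725, 0.737, 0.711 and 0.562 in tumor and 0.411, 0.364, 0.282 and 0.379 in spleen. The balance was higher in tumor than in splenic libraries in all 8 pairings of condition and sort. High-list cells (defined below) held 67.2, 61.4, 60.6 and 60.5% of the S-phase UMIs of tumor CD8+ libraries. In splenic CD8+ libraries they held 8.27, 7.43, 22.03 and 17.3%, so the balance does not describe dividing cells alone. The part of S-phase UMIs from other cells in the balance was not tested. Within each tumor sort the *Aire*-/- anti-PD1 library had the lowest balance, with intervals of 0.690 to 0.714 for CD8+ and 0.549 to 0.576 for CD45+ cells that lay below those of the other 3. The splenic CD8+ library of *Aire*-/- isotype mice stood apart from the other splenic CD8+ libraries at 0.497 to 0.537. The order of both *Aire*+/+ splenic CD8+ libraries turned within the CD8+ T gate, by the levels given with the gates, and is not read further.

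Tumor was compared with spleen within each condition. In the CD8+ sort the S-phase genes had log2 ratios of 1.89, 1.98, 1.47 and 1.43 (median 1.68, or 3.20-fold) and the G2/M genes 3.796, 4.04, 2.17 and 2.81 (median 3.31, or 9.88-fold). The G2/M ratio exceeded the S ratio in each of the 4 conditions, and both were smaller in *Aire*-/- than in *Aire*+/+ mice. Genes with at least 50 UMIs over each pair were counted. At least 2-fold higher in tumor in all 4 conditions were 36 of 41 members (12.92% of all genes tested), namely 22 of 22 G2/M genes, 13 of 17 S-phase genes and Stmn1. The other 4 S-phase genes were Mcm4, Mcm6, Mcm7 and Pcna, and Hmgb2 also missed the 2-fold limit in 1 condition. At least 2-fold lower were 0 of 41 members (5.902% of all genes). The largest median log2 ratios were those of Cenpf (4.39), Nusap1 (4.31) and Ube2c (4.02), and the smallest those of Mcm4 (0.99), Mcm7 (1.01) and Pcna (1.14). Over all genes the median log2 ratio was 0.096, 0.11, 0.050 and 0.024 in the 4 conditions, against 3.23, 3.62, 1.95 and 2.39 over the members. Among gated CD8+ T cells alone the G2/M ratios were 4.31, 4.22, 2.14 and 3.02 and the S ratios 1.94, 2.03, 1.498 and 1.47.

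**Figure D2:**
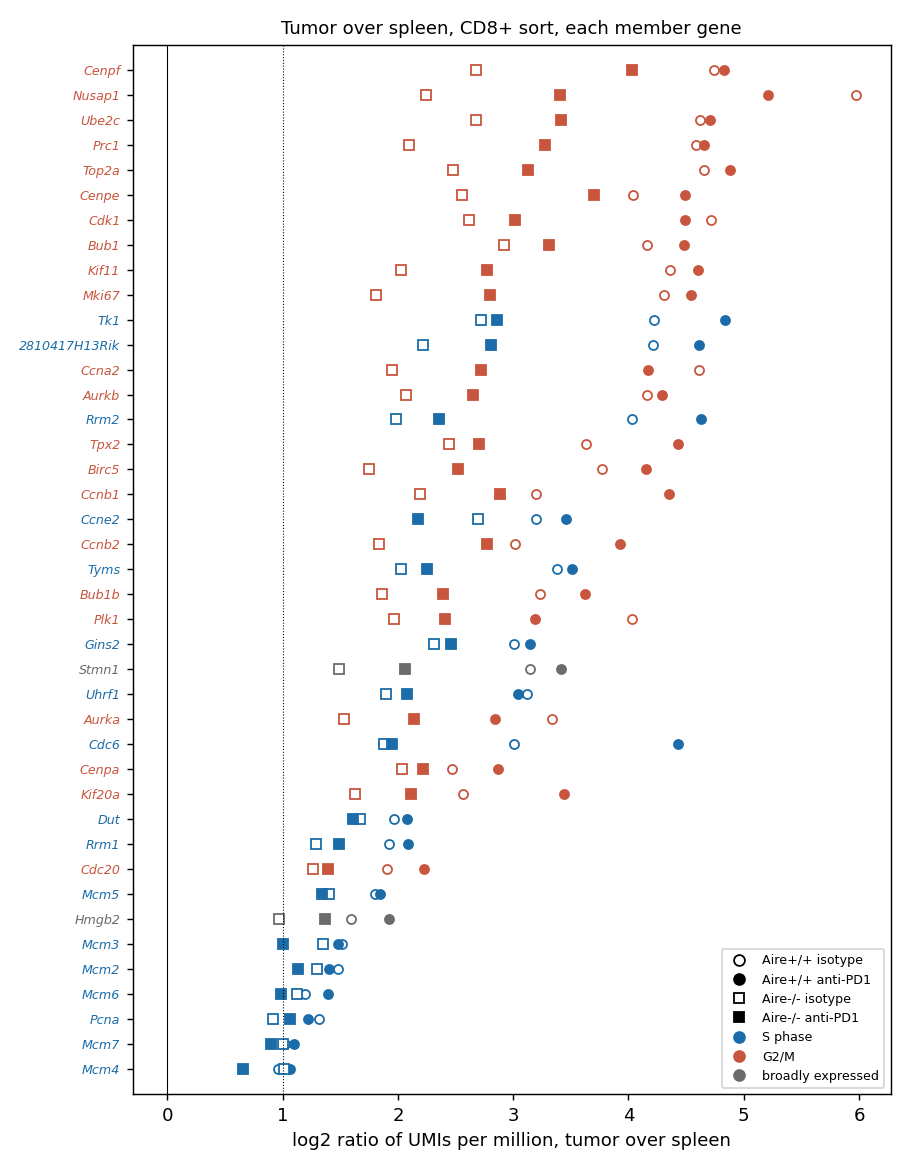
The log2 ratio of CPM in tumor over spleen (horizontal axis) for each of the 41 genes in the CD8+ sort, with 1 point per condition, sorted by the median. Circles are wild-type and squares *Aire*-/- mice, open for isotype and filled for anti-PD1; the dotted line marks a 2-fold difference, past which all 22 G2/M genes lie in the 4 conditions.

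In the CD45+ sort, where the mix of cell types differs between tissues, the differences were smaller. S-phase genes had log2 ratios of -0.15, 0.32, 0.28 and 1.001 and G2/M genes 0.67, 1.34, 1.62 and 1.57, so the S-phase sum was lower in the tumor of *Aire*+/+ isotype mice and higher in the other 3. Members at least 2-fold higher in tumor in all 4 conditions numbered 9 of 41 (10.93% of all genes), with 8 of 22 G2/M and 1 of 17 S-phase genes, and 0 of 41 were at least 2-fold lower (12.03% of all genes). The largest medians were those of Tpx2 (1.92), Birc5 (1.86) and Cdk1 (1.84) and the smallest those of Mcm7 (-0.34), Mcm4 (-0.30) and Mcm2 (-0.21). Scaling to CPM put the median of all genes at -0.27, -0.27, -0.28 and -0.19, a shift beyond 0.1 that the members' ratios share. The members' own medians were 0.51, 1.27, 1.29 and 1.59.

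To ask how many cells carried the signal, each cell was thinned to 2000 UMIs and called high-list if it kept at least 5 UMIs of the 39 S and G2/M genes; 252 shallower cells, all splenic, were left out. High-list is a range of a score and not a cell type. In the tumor CD8+ libraries 18.4, 15.3, 14.7 and 14.6% of cells were high-list, against 0.863, 0.688, 2.02 and 1.69% in splenic CD8+ libraries (25, 20, 47 and 44 cells). The CD45+ shares were 4.44, 4.94, 4.74 and 6.80% in tumor and 1.21, 1.15, 1.15 and 0.929% in spleen. Without thinning, when depth differs between tissues, the same limit gave 59.3, 58.6, 54.6 and 50.3% and 11.5, 9.88, 11.1 and 11.3% for tumor and splenic CD8+ cells, and 26.8, 29.7, 31.2 and 35.3% and 6.92, 5.84, 6.97 and 6.27% for CD45+ cells. *Aire*+/+ isotype had the highest share among tumor CD8+ libraries, with an exact binomial interval of 16.96 to 19.9%. The splenic CD8+ intervals of *Aire*+/+ mice, 0.559 to 1.27% and 0.421 to 1.06%, both lay below 1.49 to 2.68% for *Aire*-/- isotype, and the first of them overlapped 1.23 to 2.26% for *Aire*-/- anti-PD1. Many cells lay near the limit, with 98, 94, 68 and 71 tumor CD8+ cells at 4 UMIs and 71, 48, 34 and 52 at exactly 5. In splenic CD8+ libraries these numbers were 22, 20, 14 and 30 and 2, 4, 7 and 9.

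**Figure D3:**
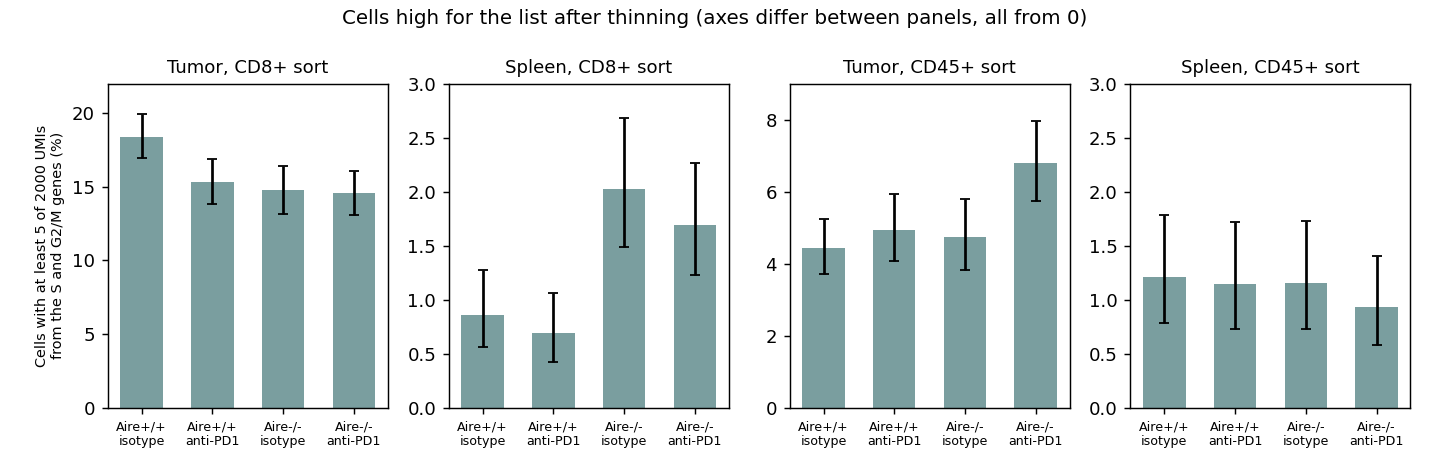
Percent of cells with at least 5 of 2000 UMIs from the 39 S and G2/M genes in each library, with exact binomial 95% intervals for counting error. The panels have different vertical scales: bars reach 18.4% in tumor CD8+ cells and at most 2.02% in spleen.

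High-list cells were deeper than the others in every library, with median UMIs of 19287, 18478, 18929 and 17472 against 10215, 9539, 9542 and 8119 in tumor CD8+ cells and 14488, 8162, 13812 and 13082 against 6394, 6327, 6265 and 5785 in splenic CD8+ cells. They held most of the G2/M UMIs of the tumor CD8+ libraries (86.98, 83.4, 86.1 and 83.1%) and 42.9, 36.2, 73.8 and 52.4% of those in splenic ones. Of the S-phase UMIs they held 67.2, 61.4, 60.6 and 60.5% in tumor and 8.27, 7.43, 22.03 and 17.3% in spleen, so S-phase transcripts were spread more widely. Outside the high-list cells, splenic CD8+ cells had G2/M levels of 33.4, 30.8, 35.6 and 39.3 CPM, and S-phase levels of 313, 313, 314 and 341 CPM. For tumor CD8+ cells outside the class these were 119, 131, 106 and 113 and 413, 438, 428 and 427 CPM. The class is drawn by UMIs of the same genes, so levels outside it are bounded by its limit and do not locate a difference between libraries. The 10 cells with most G2/M UMIs held 49.1, 54.3, 51.7 and 56.4% of all G2/M UMIs of the splenic CD8+ libraries, and 11.2, 12.1, 16.6 and 15.3% in tumor.

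High-list cells were split by the share of G2/M UMIs among their list UMIs. In tumor CD8+ libraries 50, 44.4, 45.3 and 49.1% of them had under 30% G2/M UMIs and 17.2, 18.8, 20.8 and 15.5% over 70%. In splenic CD8+ libraries, with few cells each, the shares were 44, 65, 46.8 and 65.9% and 24, 15, 19.1 and 11.4%. These shares follow the sizes of the lists, so S and G2/M shares are not compared within a library. Each gene's own share of UMIs in high-list cells was taken with that gene left out of the class. In tumor CD8+ cells it was 98.2% for Ccna2, 97.2% for Cenpf, 93.97% for 2810417H13Rik and 93.2% for Rrm2, but 35.8% for Mcm6, 39.4% for Pcna, 41.2% for Mcm4 and 44.3% for Dut. Cenpa, at 51.6%, was lowest of the G2/M genes. Splenic CD8+ cells gave a wider spread, from 3.83% for Mcm4, 6.46% for Dut and 7.83% for Pcna to 94.1% for Nusap1 and 94.2% for Ccna2. Most UMIs of the Mcm genes, Dut and Pcna in spleen therefore came from cells outside the class.

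Cell types were set by gates, which are minimum UMIs of marker genes in a cell: Cd79a for B cells, the Cd3 genes for T cells, split by Foxp3 and by Cd8a or Cd8b1, the C1q genes for macrophages and Ncr1 for NK cells. Cells with at least 10 Lyz2 UMIs and none of these were called other myeloid, and the rest ungated. In the tumor CD45+ libraries the macrophage gate held 41.4, 35.6, 24.3 and 3.94% of the S and G2/M UMIs and the CD8+ T gate 8.06, 19.7, 29.4 and 55.5%. The leading source thus passed from macrophages in *Aire*+/+ mice to CD8+ T cells in *Aire*-/- mice, most of all under anti-PD1. Their shares of cells were 38.3, 34.1, 28.2 and 9.40% and 4.51, 9.06, 11.2 and 34.5%. NK cells held 12.5, 17.3, 15.7 and 19.8% of the list UMIs with 3.48, 5.30, 7.92 and 12.5% of the cells, and Foxp3+ T cells 12.6, 10.5, 5.50 and 6.44% with 5.05, 4.30, 2.32 and 4.19%. Both gates therefore held more of the cell cycle UMIs than of the cells in all 4 conditions. B cells were almost absent, with 4, 4, 2 and 4 cells.

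**Figure D4:**
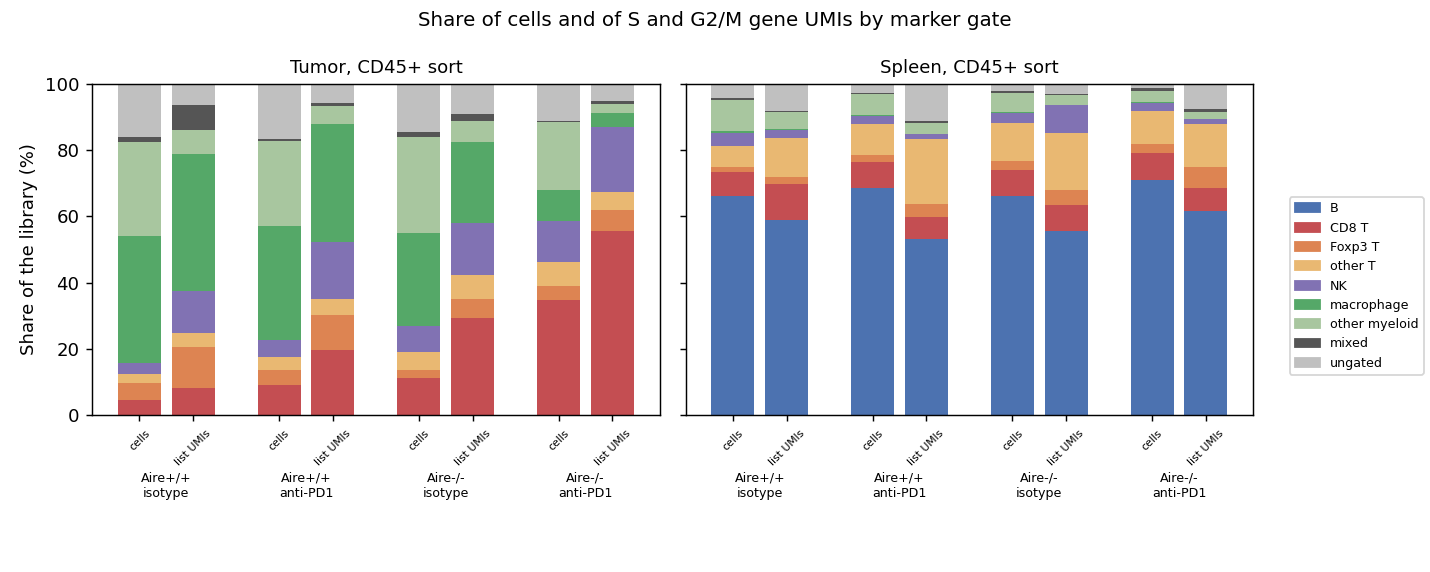
Share of cells (left bar of each pair) and of S and G2/M gene UMIs (right bar) by marker gate in the CD45+ libraries, in percent of the library. In tumor the right bars pass from macrophages in wild-type mice to CD8+ T cells in *Aire*-/- mice under anti-PD1, and in spleen the B gate holds the largest share throughout.

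Within the tumor CD45+ libraries the level per gate also differed. G2/M genes stood at 989.6, 1075, 934 and 778 CPM in Foxp3+ T cells, 453, 773, 855 and 831 CPM in CD8+ T cells and 644, 848, 792 and 501 CPM in NK cells. In macrophages they stood at 268, 352, 222 and 166 CPM. Foxp3+ T cells, CD8+ T cells and NK cells were thus above macrophages in each condition. Foxp3+ T cells were also above CD8+ T cells, except in *Aire*-/- mice under anti-PD1. The share of high-list cells was 13.5, 12.6, 13.95 and 12.6% of Foxp3+ T cells, 9.09, 12, 17.8 and 11.6% of CD8+ T cells, 16.7, 14.5, 11.6 and 9.27% of NK cells and 5.17, 5.84, 3.44 and 4.10% of macrophages. Other myeloid cells served as the background of the class: 1, 0, 0 and 0 of 835, 568, 538 and 423 cells were high-list, at median depths of 11794, 12077, 12378 and 10922 UMIs, against 14601, 14943, 14110 and 11565 for macrophages and 9699, 8812, 10338 and 9040 for CD8+ T cells. Their G2/M level was 79.2, 65.6, 62.95 and 57.4 CPM. Cells in more than 1 gate were few, but the 39 such cells of *Aire*+/+ isotype tumor included 11 high-list cells (28.2%) and held 7.31% of its list UMIs at a median depth of 20131 UMIs. No doublets were removed, and the part of doublets in these cells was not tested.

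In the splenic CD45+ libraries the B gate held 58.99, 53.1, 55.7 and 61.6% of the S and G2/M UMIs with 66.2, 68.6, 66.04 and 70.9% of the cells, a smaller share of the UMIs than of the cells in all 4. T cells outside the CD8+ and Foxp3+ gates held 11.8, 19.5, 17.2 and 13.02% with 6.44, 9.34, 11.7 and 10.1% of the cells. Ungated cells, 93, 58, 42 and 35 in number, had the highest share of high-list cells among gates with at least 10 cells, with 8.24, 6.38, 8.57 and 10.3%, against 0.871, 0.939, 0.758 and 0.654% in the B gate. All 7 progenitor markers (among them Kit, Mpo and Prtn3) were found in each of these libraries, at 32.5, 27.8, 10.1 and 13.1 CPM, and the part of progenitors in the ungated cells was not tested. Splenic NK cells had G2/M levels of 59.6, 35.3, 597 and 34.03 CPM, where the high value rested on 3 high-list cells.

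The CD8+ sort was nearly pure by these gates, with 92.7, 95.6, 95.5 and 97.9% of tumor and 95.6, 96.5, 97.3 and 96.1% of splenic cells in the CD8+ T gate. That gate held 96.2, 99.1, 95.6 and 99.4% and 89.96, 94.1, 98.5 and 92.1% of the list UMIs. In the splenic library of *Aire*+/+ isotype mice, 90 ungated cells held 8.89% of the list UMIs, with G2/M genes at 509 CPM against 60.2 CPM in the CD8+ T gate. This is the library with the most Hbb-bs UMIs of the splenic CD8+ sort, and the part of erythroid cells in these cells was not tested. Within the CD8+ T gate the G2/M genes of spleen stood at 60.2, 62.6, 258 and 117 CPM and the S-phase genes at 381, 342, 495 and 488 CPM. The *Aire*+/+ libraries were thus alike for the G2/M genes, and both *Aire*-/- libraries were higher for both lists. In tumor the same gate gave 1191, 1163, 1135 and 952 CPM for G2/M and 1463, 1403, 1397 and 1349 CPM for S phase, with *Aire*-/- anti-PD1 lowest in both.

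Genotypes were compared as *Aire*-/- over *Aire*+/+ within a treatment, counting genes at least 1.5-fold apart among those with at least 50 UMIs over the pair. In the splenic CD8+ sort cell cycle genes were higher in *Aire*-/- mice. Under isotype the S-phase genes had a log2 ratio of 0.38 (95% interval 0.33 to 0.43) and the G2/M genes 1.61 (95% interval 1.52 to 1.69). Of the members that passed, 27 of 39 (4.282% of all genes) were higher and 0 of 39 (3.663% of all genes) lower, with 19 of 21 G2/M and 6 of 16 S-phase genes among the higher ones. In this pair, the largest ratios were those of Nusap1 (3.69), Ccna2 (2.63) and Prc1 (2.52), and the smallest those of Mcm7 (0.054), Mcm4 (0.082) and Mcm2 (0.12). Under anti-PD1 the ratios were 0.53 (0.48 to 0.57) for S phase and 0.97 (0.87 to 1.07) for G2/M, with 26 of 39 (5.422% of all genes) higher and 0 of 39 (2.564% of all genes) lower, of which 16 of 20 were G2/M and 9 of 17 S-phase genes. Here Cdc6 (2.70), Rrm2 (2.13) and Kif11 (1.78) led, and Pcna (0.19), Mcm2 (0.28) and Mcm7 (0.31) differed least. The median over all genes was 0.0083 and 0.076, and over the members tested 1.21 and 0.99. Within the CD8+ T gate the G2/M ratios were 2.10 under isotype and 0.90 under anti-PD1, and the S ratios 0.38 and 0.51. Few cells made up these sums, as the shares of the 10 leading cells show.

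The CD8+ T gate of the splenic CD45+ libraries did not repeat this. Under isotype its genotype ratio was -0.56 (-0.75 to -0.36) for S phase and -3.16 (-3.71 to -2.65) for G2/M, the other way from the CD8+ sort. Under anti-PD1 it was 0.15 (-0.062 to 0.36) and -0.59 (-1.24 to 0.055), and both intervals held 0. These gates were small, with 149, 162, 160 and 193 cells, of which 1, 0, 0 and 1 were high-list cells. They held 295, 47, 35 and 39 G2/M UMIs. The leading cell of the splenic CD45+ library of *Aire*+/+ isotype mice, of whichever gate, held 260 G2/M UMIs. The part of single cells in the isotype ratio was not tested. Effector genes moved with the genotype in the CD8+ sort. In splenic cells of the CD8+ T gate outside the high-list class, on thinned UMIs, the granzymes Gzma, Gzmb and Gzmk stood at 91.9, 106, 443 and 343 CPM, 16.2, 12.5, 55.7 and 52.6 CPM and 9.63, 7.51, 50.3 and 45.5 CPM. The chemokine Ccl5, the most abundant of the effector genes, stood at 1677, 1499.6, 3349 and 3075 CPM, the receptor Klrg1 at 6.54, 5.36, 33.6 and 12.3 CPM, the pore protein Prf1 at 38.7, 37.5, 49.4 and 54.5 CPM and the cytokine Ifng at 2.72, 4.11, 5.86 and 5.47 CPM. Each of these genes was higher in both *Aire*-/- libraries than in both *Aire*+/+ libraries. For Ifng this rested on only 15, 23, 26 and 27 UMIs, too few to tell the libraries apart firmly. The part of these differences in the cell cycle ratios was not tested.

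In the tumor CD8+ sort the genotypes were close. Under isotype the log2 ratio was -0.043 (-0.064 to -0.023) for S phase and -0.016 (-0.038 to 0.0070) for G2/M, with 0 of 41 (3.332% of all genes) members higher and 0 of 41 (4.783% of all genes) lower. The extremes were Ccnb1 (0.20), Bub1 (0.19) and Mcm4 (0.13) on one side and Tk1 (-0.30), Uhrf1 (-0.29) and Ccnb2 (-0.24) on the other. Under anti-PD1 S phase was at -0.021 (-0.043 to 0.00086) and G2/M at -0.25 (-0.28 to -0.23), so the G2/M genes were somewhat lower in *Aire*-/- mice. Members at least 1.5-fold higher numbered 0 of 41 (2.438% of all genes) and lower 1 of 41 (4.423% of all genes), the latter being Bub1b. At the ends were Ccne2 (0.46), Cdc6 (0.22) and Mcm5 (0.15) and Bub1b (-0.63), Cdc20 (-0.45) and Tpx2 (-0.42). Over all genes the medians were -0.038 and -0.018, and over the members -0.015 and -0.11. For the 39 genes together the anti-PD1 ratio was -0.12, and -0.23 without the deepest cells. The CD8+ T gate alone gave -0.069 and -0.16 for the 39 genes together. In the CD8+ T gate of the tumor CD45+ libraries (132, 200, 208 and 716 cells) the isotype ratio was larger, 0.50 (0.41 to 0.59) for S phase and 0.92 (0.79 to 1.05) for G2/M, while under anti-PD1 it was -0.073 (-0.13 to -0.013) and 0.10 (0.025 to 0.18).

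In the tumor CD45+ libraries the genotype ratio depended on treatment. Under isotype it was 0.19 (0.15 to 0.22) for S phase and 0.16 (0.12 to 0.20) for G2/M, with 0 of 41 (7.162% of all genes) members higher and 0 of 41 (3.515% of all genes) lower. Leading genes were 2810417H13Rik (0.55), Top2a (0.50) and Prc1 (0.47), and lowest were Kif20a (-0.56), Aurka (-0.35) and Cdc20 (-0.35). Under anti-PD1 it was 0.79 (0.76 to 0.83) and 0.40 (0.36 to 0.44), and 18 of 41 (15.55% of all genes) were higher, with 13 of 17 S-phase and 4 of 22 G2/M genes, while 0 of 41 (10.88% of all genes) were lower. Its extremes were Rrm2 (1.19), Kif11 (1.17) and Dut (1.11) and Bub1 (-0.31), Bub1b (-0.17) and Aurka (-0.078). All-gene medians were -0.013 and 0.091, and those of the members 0.14 and 0.43. Stromal markers stood at 5.19 CPM in the *Aire*+/+ and 62.5 CPM in the *Aire*-/- isotype library, and the part of stromal cells in the isotype ratio was not tested. Within gates the S and G2/M ratios under anti-PD1 were, in this order, CD8+ T cells -0.073 and 0.10, NK cells -0.48 and -0.76, macrophages -0.12 and -1.09, Foxp3+ T cells 0.10 and -0.47, other T cells -0.39 and -0.74. None of the 5 gates reached the whole-library ratio of either list. CD8+ T cells made up 9.06% of cells in *Aire*+/+ and 34.5% in *Aire*-/- mice, and the part of the cell mix in the whole-library ratio was not tested. Under isotype the gates gave CD8+ T cells 0.50 and 0.92, NK cells -0.83 and 0.30, macrophages -0.11 and -0.27, Foxp3+ T cells 0.26 and -0.084, other T cells -0.27 and -0.016, so S and G2/M genes of NK cells had opposite signs, while the interval of the Foxp3+ G2/M ratio, -0.24 to 0.070, held 0.

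Splenic CD45+ libraries went one way under isotype and the other under anti-PD1. The isotype ratio was -0.24 (-0.30 to -0.18) for S phase and -0.78 (-0.89 to -0.68) for G2/M, so *Aire*-/- mice had the lower levels, with 18 of 37 (5.885% of all genes) members lower (13 of 20 G2/M and 5 of 15 S phase) and 0 of 37 (1.853% of all genes) higher. Largest were Mcm4 (0.18), Mcm6 (0.11) and Mcm2 (-0.0084) and smallest Tpx2 (-1.86), Mki67 (-1.69) and Plk1 (-1.504). Under anti-PD1 the ratio was 0.11 (0.052 to 0.17) and 0.17 (0.069 to 0.27), with 3 of 37 (2.810% of all genes) higher and 1 of 37 (4.431% of all genes) lower. Here Top2a (0.69), Kif11 (0.65) and Plk1 (0.63) stood highest and Gins2 (-0.76), Bub1b (-0.46) and Cenpf (-0.36) lowest. Medians over all genes were -0.0033 and 0.016, and over the members tested -0.57 and 0.14. Within gates the ratios of the 39 genes under isotype and anti-PD1 were B cells -0.51 (-0.58 to -0.45) and 0.24 (0.17 to 0.31), other T cells -0.62 (-0.75 to -0.48) and -0.47 (-0.60 to -0.34), CD8+ T cells -1.08 (-1.25 to -0.90) and 0.073 (-0.13 to 0.28) and ungated cells -0.74 (-1.0004 to -0.49) and 0.47 (0.30 to 0.64). B cells, CD8+ T cells and ungated cells thus shared both signs with the whole library (the interval of CD8+ T cells under anti-PD1 held 0), while other T cells were lower in *Aire*-/- mice under both treatments. Markers of other cells differed as well: under isotype those of monocytes and neutrophils stood at 4656 CPM in *Aire*+/+ and 2341 CPM in *Aire*-/- spleen, and those of progenitors at 32.5 and 10.1 CPM. The part of the cell mix was not tested. The mean of the 2 whole-library log2 ratios of the 39 genes was -0.12, which turned to 0.0062 on thinned cells. In these libraries too the 10 leading cells held 59.3, 53.6, 51.7 and 64.03% of the G2/M UMIs. In the CD8+ T gate the isotype ratio rests on 35 against 295 G2/M UMIs. The leading cell of the *Aire*+/+ isotype library, of whichever gate, held 260 G2/M UMIs.

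Treatment was read as anti-PD1 over isotype within a genotype, by the same limits, and these pairs share their libraries with the genotype pairs. In tumor CD8+ cells of *Aire*+/+ mice the log2 ratio was -0.044 (-0.063 to -0.024) for S phase and -0.049 (-0.071 to -0.028) for G2/M, with 0 of 41 (1.799% of all genes) members higher and 0 of 41 (4.457% of all genes) lower. Its ends were Cenpa (0.17), Hmgb2 (0.17) and Bub1b (0.14) and Plk1 (-0.38), Ccne2 (-0.29) and Gins2 (-0.26). In *Aire*-/- mice S phase was at -0.021 (-0.044 to 0.0015) and G2/M at -0.28 (-0.31 to -0.26), with 0 of 41 (1.926% of all genes) higher and 0 of 41 (4.861% of all genes) lower, between Ccne2 (0.24), Rrm1 (0.087) and Stmn1 (0.075) and Plk1 (-0.57), Cenpe (-0.53) and Cdc20 (-0.51). The tumor CD8+ sort thus differed little by treatment, the G2/M genes of *Aire*-/- mice being slightly lower, whereas the CD8+ T gate of the tumor CD45+ libraries of *Aire*+/+ mice gave 0.45 (0.36 to 0.54) and 0.77 (0.64 to 0.90). In the CD8+ sort the ratio of the 39 genes in *Aire*-/- mice, -0.14, shrank to -0.057 on thinned cells and was -0.14 in the CD8+ T gate. In splenic CD8+ cells of *Aire*+/+ mice the ratios were -0.13 (-0.18 to -0.086) and -0.29 (-0.40 to -0.19), with 6 of 34 (3.001% of all genes) lower and 0 of 34 (1.506% of all genes) higher, from Ccna2 (0.53), Plk1 (0.46) and Aurka (0.30) to Ccnb1 (-1.33), Ccnb2 (-0.82) and Tpx2 (-0.79). Within the CD8+ T gate the G2/M ratio of this pair was 0.056 (-0.064 to 0.18), so its sign turned, and the S ratio was -0.15 (-0.20 to -0.10). In *Aire*-/- mice S phase was at 0.012 (-0.033 to 0.058) and G2/M at -0.93 (-1.003 to -0.85), with 21 of 40 (1.814% of all genes) lower, with 20 of 21 G2/M genes among them, and 1 of 40 (2.776% of all genes) higher. The extremes were Ccne2 (0.75), Mcm4 (0.29) and Mcm3 (0.29) and Cenpf (-1.83), Cenpe (-1.68) and Nusap1 (-1.40). All-gene medians in these 4 pairs were -0.0067, 0.013, -0.030 and 0.048, and member medians -0.045, -0.13, -0.23 and -0.63.

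In the tumor CD45+ libraries of *Aire*+/+ mice the anti-PD1 ratio was 0.20 (0.17 to 0.23) for S phase and 0.22 (0.19 to 0.26) for G2/M, with 3 of 41 (3.444% of all genes) members higher and 0 of 41 (1.217% of all genes) lower, between Prc1 (0.68), Nusap1 (0.60) and Bub1 (0.59) and Cdc20 (-0.22), Kif20a (-0.20) and Plk1 (-0.20). In *Aire*-/- mice it was 0.81 (0.77 to 0.84) and 0.47 (0.42 to 0.51), with 21 of 41 (15.27% of all genes) higher, 14 of 17 S-phase and 6 of 22 G2/M genes among them, and 0 of 41 (10.07% of all genes) lower. Rrm2, Nusap1 and Dut led with 1.31, 1.23 and 1.13, and Plk1 (0.015), Bub1b (0.026) and Tpx2 (0.058) differed least. Within gates the S and G2/M ratios in *Aire*-/- mice were CD8+ T cells -0.12 and -0.041, NK cells 0.47 and -0.66, macrophages -0.14 and -0.42, Foxp3+ T cells 0.14 and -0.26, other T cells -0.15 and -1.07, again with opposite signs in NK cells, while the interval of the Foxp3+ S-phase ratio, 0.00013 to 0.28, began next to 0. Splenic CD45+ cells of *Aire*+/+ mice had ratios of -0.27 (-0.32 to -0.21) and -0.44 (-0.54 to -0.34), with 10 of 38 (3.973% of all genes) lower and 0 of 38 (1.633% of all genes) higher, from Prc1 (0.30), Cenpf (0.22) and Rrm1 (0.15) to 2810417H13Rik (-1.44), Kif11 (-1.03) and Rrm2 (-0.99). Those of *Aire*-/- mice had 0.086 (0.026 to 0.15) and 0.51 (0.41 to 0.62), with 10 of 35 (2.537% of all genes) higher (8 of 18 G2/M genes) and 0 of 35 (2.711% of all genes) lower, from Tpx2 (1.31), Mki67 (1.29) and Birc5 (1.03) to Gins2 (-0.13), Pcna (-0.078) and Mcm6 (-0.071). Medians over all genes were 0.0094, 0.11, 0.010 and 0.027, the second of them a shift beyond 0.1, and medians over the members 0.16, 0.60, -0.31 and 0.18.

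Treatment ratios of the CD45+ libraries were not shared by all gates. In tumor of *Aire*+/+ mice the S and G2/M ratios were CD8+ T cells 0.45 and 0.77, NK cells 0.12 and 0.40, macrophages -0.13 and 0.40, Foxp3+ T cells 0.30 and 0.12, other T cells -0.028 and -0.35. In spleen of *Aire*+/+ mice they were B cells -0.47 and -0.79, other T cells -0.44 and 0.45, CD8+ T cells -0.71 and -2.63, ungated cells 0.86 and 0.29, and in spleen of *Aire*-/- mice B cells 0.18 and 0.32, other T cells -0.37 and 1.05, CD8+ T cells -0.00054 and -0.059, ungated cells 1.32 and 2.61. The value of -2.63 compares 47 with 295 G2/M UMIs. The leading cell of the isotype library of that pair, of whichever gate, held 260 G2/M UMIs. B cells and ungated cells of *Aire*+/+ spleen thus had opposite signs, and S and G2/M genes of other T cells had opposite signs in both genotypes. Stromal markers of the tumor CD45+ libraries stood at 5.19, 6.81, 62.5 and 1.93 CPM. Monocyte and neutrophil markers of the splenic CD45+ libraries stood at 4656, 2899, 2341 and 2889 CPM, and the part of the cell mix in the treatment ratios was not tested.

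High-list cells were set against the other cells of their gate, on thinned UMIs, to see what else they expressed. In the CD8+ T gate of tumor (1403 high-list and 7150 other cells), genes of naive and stem-like cells were lower, with log2 ratios of Tcf7 -1.65, Slamf6 -1.64 and Lef1 -1.28. Effector genes divided: the chemokine Ccl5 was at -1.82 and Gzma at -0.97, while Gzmb and Prf1, the core of the killing machinery, were at 0.038 and -0.017. Residency genes were lower too (Itgae -1.38, Cd69 -0.93), and the inhibitory receptor Pdcd1 was at -0.18. In spleen (117 against 10238 cells) the same class had more of the granzymes. Gzma was at 3.0002, 3.56, 3.48 and 3.68 in the 4 libraries. Summed over the libraries, whose levels and numbers of high-list cells differ so that a sum can pass the value of each, Gzmb was at 4.07 and Gzmk at 3.496. The inhibitory receptors Tigit, Pdcd1 and Lag3 were at 3.42, 3.17 and 3.15, from 15, 10 and 15 UMIs in high-list cells. It had less of some homing and stemness genes, with Ccr7 -1.62, Lef1 -1.49 and Tcf7 -1.32, but Slamf6 was at -0.35 (-1.08 to 0.30). Apart from Slamf6 these genes had the same sign in all 4 libraries.

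The splenic B gate held 46 high-list cells against 5717 others. Some germinal centre genes were higher in them, on few UMIs: Mef2b at 4.59 (12 UMIs in high-list cells), Rgs13 at 4.50 (8 UMIs in high-list cells) and S1pr2 at 4.82 (5 UMIs in high-list cells). Mybl1 was at 6.96 (4.06 to 9.86) from 3 UMIs, and Fas at 1.81 (-1.27 to 3.71) and Bcl6 at 0.16 (-2.89 to 2.03) were not told apart from no difference. Genes of follicular and marginal zone B cells had no common direction, with Fcer2a (CD23) at -1.70 (-2.51 to -0.997), Cr2 at -0.85 (-1.66 to -0.15) and Cd9 at 1.73 (0.59 to 2.67). Nor had those of plasma cells, with Mzb1 at 1.16 (0.85 to 1.45), Jchain at 0.59 (0.27 to 0.89), Xbp1 at 0.25 (-0.70 to 1.06) and Irf4 at -0.57 (-3.62 to 1.29), and with no UMI of Sdc1 or Prdm1 in high-list cells. The libraries went opposite ways for Jchain, at -2.68, 1.41, -0.25 and 1.47 in the order of the conditions. In the tumor macrophage gate (128 against 2464 cells), Ccr2 and Lyz2, genes of recent monocytes and of myeloid cells in general, were at -1.76 and -1.22.

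A further 60 cell cycle genes that are not members were taken by name for comparison. In the CD8+ sort 34 of 60 (12.92% of all genes) were at least 2-fold higher in tumor in all 4 conditions. These were 8 of 12 other S-phase genes, 15 of 18 other G2/M genes, 3 of 3 of the mitotic transcription genes (Foxm1, Mybl2 and Lin54), 4 of 8 of the pocket protein and E2F genes, 3 of 6 inhibitors and 1 of 7 G1 cyclins and kinases, but 0 of 6 growth-linked genes such as Npm1. None of the 60 was 2-fold lower (5.902% of all genes). In the CD45+ sort 6 of 55 were higher (10.93% of all genes), with 2 of 16 other G2/M and 0 of 11 other S-phase genes, and 1 of 55 was lower (Cdc25b, 12.03% of all genes). The largest ratios of a single pair were Cdkn1a 7.83, Orc1 5.56 (3.68 to 8.62, from 2 UMIs) and Hmmr 5.34 in the CD8+ sort and Cdkn1a 7.71, Ccnd1 4.33 and E2f7 3.34 (1.72 to 5.66, from 3 UMIs) in the CD45+ sort. Cdkn1a, the inhibitor p21, led in each of the 8 tissue pairs, at 6.30 to 7.83. The smallest were Ccnd1 -1.07, Cdc25b -0.99 and Cdkn2d -0.62 (CD8+) and Cdc25b -3.16, Rbl2 -1.25 and Cdk2 -1.10 (CD45+). Between genotypes the ends were Nuf2 2.16, Kif2c 2.02 and Cdca3 2.005 against Ccnd1 -1.56, Cdc25c -0.54 and Kif23 -0.54 in CD8+ pairs, and Orc1 1.55, Cdc25b 1.20 and Rpa2 1.17 against Ccnd1 -1.06, Spc24 -1.01 and Chaf1a -1.01 in CD45+ pairs. Between treatments they were Ccnd1 1.18, Cdk6 0.52 and Foxm1 0.48 against Kif2c -2.03, Ccnd1 -1.62 and Nuf2 -1.09 in CD8+ pairs, and E2f7 2.08, Rpa2 1.13 and Rbl2 1.01 against Cdkn1a -1.29, Spc25 -1.18 and Mybl2 -1.10 in CD45+ pairs. In splenic CD8+ cells 17 of 53 of these genes (4.282% of all genes) were at least 1.5-fold higher in *Aire*-/- mice under isotype and 12 of 49 (5.422%) under anti-PD1, while in tumor CD8+ cells the counts were 0 of 60 (3.332%) and 0 of 60 (2.438%). Ccnd1, a G1 cyclin, was lower in *Aire*-/- mice in tumor CD8+ cells, with log2 ratios of -0.92 under isotype and -1.56 under anti-PD1.

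Promoters of the members were searched for the letters that known regulators of S-phase and of late cell cycle genes bind. RefSeq promoters of build GRCm38.p6, 300 bases from 250 before to 50 after the transcription start, were at hand for 33 of the 41 members, 2810417H13Rik under its present name Pclaf, in 36 entries of 32851. There was no entry for Aurkb, Ccna2, Ccne2, Gins2, Kif20a, Mcm4, Stmn1 and Tpx2. E2F motifs (TTTCCCGC, TTTGGCGC, TTTCGCGC or TTTGCCGC on either strand) were found in 7 of 16 S-phase and 1 of 19 G2/M promoters, against 2.26% of all. CHR motifs, the element of late cell cycle genes (TTTGAA or TTTAAA on either strand), were found in 6 of 16 S-phase and 17 of 19 G2/M promoters, against 27.6% of all. CCAAT boxes (CCAAT on either strand) were found in 12 of 16 S-phase and 17 of 19 G2/M promoters, against 37.4% of all, and both a CHR and a CCAAT in 5 of 16 S-phase and 16 of 19 G2/M promoters, against 10.7% of all. TTTAAA reads the same on both strands, 2 E2F matches can overlap, and a match describes letters only. Among the G2/M genes with an entry, Nusap1 and Bub1 had no CHR letters in this window. Their median log2 ratios of tumor over spleen in the CD8+ sort were 4.31 and 3.73.

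The promoters of the 2 members of each list with most UMIs over the 16 libraries among those that hold the motif are shown, 5′ to 3′ along the gene, so that the motifs can be seen in their surroundings. Capitals mark E2F matches in Mcm6 and 2810417H13Rik and CHR matches in Top2a and Cenpa. Matches began 110 bases before the start, 106 bases before the start and 47 bases before the start in Mcm6, where the first 2 overlap, and 5 bases before the start in 2810417H13Rik. In Top2a they began 179 bases before the start and 23 bases before the start, and in Cenpa 17 bases before the start and 17 bases after it.
Mcm6 (chr1:128359656-128359955, minus strand): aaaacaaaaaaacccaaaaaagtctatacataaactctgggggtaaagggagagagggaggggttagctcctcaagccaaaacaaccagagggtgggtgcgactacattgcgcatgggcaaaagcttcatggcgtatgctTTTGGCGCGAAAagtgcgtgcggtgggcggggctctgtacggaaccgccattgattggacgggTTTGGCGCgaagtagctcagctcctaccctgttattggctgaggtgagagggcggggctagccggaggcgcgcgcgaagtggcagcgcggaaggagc
2810417H13Rik (chr9:65890073-65890372, plus strand): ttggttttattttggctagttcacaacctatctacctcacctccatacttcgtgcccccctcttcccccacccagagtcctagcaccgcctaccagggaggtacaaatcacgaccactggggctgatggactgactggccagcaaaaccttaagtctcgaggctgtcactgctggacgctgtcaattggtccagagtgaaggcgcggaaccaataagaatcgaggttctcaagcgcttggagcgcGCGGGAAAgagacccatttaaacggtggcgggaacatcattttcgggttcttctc
Top2a (chr11:99024140-99024439, minus strand): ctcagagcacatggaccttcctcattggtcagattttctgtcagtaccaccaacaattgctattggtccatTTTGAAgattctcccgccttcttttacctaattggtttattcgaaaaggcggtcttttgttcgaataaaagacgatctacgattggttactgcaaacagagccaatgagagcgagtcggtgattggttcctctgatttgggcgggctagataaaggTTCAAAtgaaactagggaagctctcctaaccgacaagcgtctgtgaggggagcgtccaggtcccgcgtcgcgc
Cenpa (chr5:30666636-30666935, plus strand): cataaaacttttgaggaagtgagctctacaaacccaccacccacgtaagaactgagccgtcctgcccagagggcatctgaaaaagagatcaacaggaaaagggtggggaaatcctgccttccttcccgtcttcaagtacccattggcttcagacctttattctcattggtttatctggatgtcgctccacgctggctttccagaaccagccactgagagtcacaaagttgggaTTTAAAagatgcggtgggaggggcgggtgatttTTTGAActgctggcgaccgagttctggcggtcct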

How the data were processed

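UMI counts per gene and cell barcode of 16 single-cell libraries were deposited by the authors, who had prepared them with a 3′ kit of 10x Genomics and had aligned and counted the reads with Cell Ranger (GRCm38 in the submitters' notes); cells of several mice had been pooled for each library. The authors' methods also name a 5′ kit for sorted CD45+ or CD8+ cells in the work on T cell receptors, and its use here was not checked. Rows of the same symbol were summed. Cells with at least 200 genes and at most 20% mitochondrial UMIs were kept, and no doublets were removed. The members and the lists were chosen with earlier results of these data known.

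UMIs of a gene or list were summed per library or gate and divided by all UMIs to give CPM, and groups were compared as log2 ratios of CPM. Groups hold 1 library each and were compared without a test. Exact Poisson intervals (levels), conditional exact intervals (ratios) and exact binomial intervals (shares of cells) cover counting error only. Counts of genes used those with at least 50 UMIs over both libraries of a pair, with a limit of 2-fold in all 4 conditions between tissues and 1.5-fold between genotypes or treatments, and a floor of 3 counts where one side was 0. Gates asked for at least 2 Cd79a UMIs (B), 2 Cd3d, Cd3e and Cd3g UMIs (T), 10 C1qa, C1qb and C1qc UMIs (macrophage) or 1 Ncr1 UMI (NK), with T cells split by 1 Foxp3 UMI and then by 1 Cd8a or Cd8b1 UMI, and cells in more than 1 gate kept apart as mixed.

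All 41 members are accounted for. Levels in every library are given for Mki67, Top2a, Mcm5, Pcna, Rrm2, Ccnb1, Cdk1, Birc5, Stmn1 and Hmgb2, and in each comparison the 3 members with the largest and the 3 with the smallest log2 ratio are named. Between tissues these were ranked by the median of the 4 conditions. Of the other cell cycle genes, the 3 with the largest ratio of a single pair each way are named for each kind of comparison and sort. Other genes named, the limits of 30 and 70% for the lean of a cell, the share of a gene with that gene left out, the share in the 10 leading cells, the gates used for ratios and for the contrasts of high-list cells were chosen after values were seen. Promoters came from RefSeq, and those printed belong to the 2 most abundant members of each list whose promoter holds the motif.

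Alternatives changed the cell filter (500 genes, 10% mitochondrial UMIs), the depth (thinning, cells above 2.50 times the median of their library left out), the denominator, the gates, the genes summed, the mean per cell, the limits of the high-list class (3 or 8 UMIs, or 3 of 1000) and the gene filter (20 or 200 UMIs). Sums, ratios and intervals were tested on simulated data. Python 3.11.15, numpy 2.4.6, scipy 1.17.1, pandas 2.3.3 and matplotlib 3.10.9 were used.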

Additional observations from a re-analysis of the deposited data

Results flagged for a closer look

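In the CD8+ sort the ratio of *Aire*-/- over *Aire*+/+ cells had opposite signs in tumor and spleen, under both treatments and for both lists. For the S-phase genes it was -0.043 under isotype and -0.021 under anti-PD1 in tumor, against 0.38 and 0.53 in spleen (log2). For the G2/M genes it was -0.016 and -0.25 in tumor, against 1.61 and 0.97 in spleen. These differences between tissues were not tested, since each value rests on 1 library per group, and the tumor values for the S-phase genes and for the G2/M genes under isotype are close to 0. The CD8+ T gate of the CD45+ libraries went another way: under isotype it gave 0.50 and 0.92 for S phase and G2/M in tumor and -0.56 and -3.16 in spleen, and under anti-PD1 -0.073 and 0.10 in tumor and 0.15 and -0.59 in spleen, where both intervals held 0. The value of -3.16 compares 35 with 295 G2/M UMIs in small gates. The leading cell of that *Aire*+/+ isotype library, of whichever gate, held 260 G2/M UMIs. The part of single cells in this ratio was not tested. In spleen the CD8+ T gate of the CD8+ sort held 45 and 41 high-list cells of *Aire*-/- mice under isotype and anti-PD1 against 17 and 14 of *Aire*+/+ mice (all cells: 47 and 44 against 25 and 20).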

How the results depend on the processing

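Of 64 alternative values, 45 stayed within the whole span of the counting intervals of the libraries they came from (counts of genes within 1.5 times), 19 moved further and 0 were reversed beyond it. For tissue ratios this span runs over 4 conditions and is wide, 2.12 to 4.12 for the G2/M genes. Only a ratio whose span excluded 0 could be called reversed. That label was therefore not open to the splenic CD45+ ratio, the shares or the counts of genes. The log2 ratio of tumor over spleen for the G2/M genes of CD8+ cells, 3.31, stayed between 2.40 (Stmn1 and Hmgb2 added) and 3.62 under all 8. For the S-phase genes, 1.68 became 1.40 with cells thinned to 2000 UMIs and 1.36 with ribosomal protein and mitochondrial genes left out of the denominator.

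In tumor CD8+ cells under anti-PD1, the ratio of *Aire*-/- over *Aire*+/+ for the 39 genes, -0.12, became -0.092 with thinned cells, -0.23 without the deepest cells, -0.16 with gated cells only and -0.092 as a mean over cells. Anti-PD1 over isotype in *Aire*-/- mice, -0.14, became -0.057 with thinned cells, -0.20 without the deepest cells, -0.082 with Stmn1 and Hmgb2 added and -0.052 as a mean over cells. In splenic CD45+ libraries the mean ratio of *Aire*-/- over *Aire*+/+, -0.12, ranged from -0.16 to 0.0080; its sign turned with thinned cells and without the deepest cells, but each value lay inside the span of the counting intervals, which holds 0. The median share of list UMIs in the B gate, 57.3%, became 62.9% with thinned cells and 51.4% with Stmn1 and Hmgb2 added.

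The median share of high-list cells rose with a limit of 3 UMIs, from 15.03 to 26.5% in tumor CD8+, 1.28 to 5.31% in splenic CD8+, 4.84 to 8.90% in tumor CD45+ and 1.15 to 4.91% in splenic CD45+ libraries. With 8 UMIs it was 10.5% and 3.12% in the tumor CD8+ and CD45+ libraries and 0.770% and 0.701% in those of spleen. Both splenic values lay within the span of the counting intervals at the main limit. With 3 of 1000 UMIs the share was 1.85% in splenic CD45+ libraries. The cause was not tested. The share in the B gate has no denominator to change, and the gate limits were varied for that share only. Members at least 2-fold higher in tumor CD8+ cells numbered 36 and stayed between 35 and 36 with other gene filters, against 1349 and 979 to 1579 of all genes. No paired analysis was possible within a group, because all libraries carry the replicate number 1, which pairs none of them there. No result comes from a test. Tumor and spleen share a condition, which would allow pairs over the 4 conditions, but they were set side by side for description only. Intervals leave out differences between animals, which pooling hides, and splenic G2/M values rest on few cells.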

Other observations

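Markers of other cells were also counted in each library. Markers of the tumor epithelium (6 genes, Epcam and Cdh1 the most abundant) stood at 19.9, 16.1, 16.8 and 17.2 CPM in tumor CD8+ and 12.5, 12.9, 13.5 and 15.98 CPM in tumor CD45+ libraries. In spleen, which holds no tumor, they stood at 5.22, 6.21, 6.22 and 6.70 CPM and 14.8, 11.9, 16.1 and 15.1 CPM. Monocyte and neutrophil markers (5 genes, led by Lyz2 or Ccr2) stood at 55.2, 48.5, 79.2 and 70.4 CPM in tumor CD8+ and 24.4, 20.3, 31.6 and 44.5 CPM in splenic CD8+ libraries. Stromal markers stood at 62.5 CPM in the tumor CD45+ library of *Aire*-/- isotype mice, against 5.19, 6.81 and 1.93 CPM in the other 3.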
